A study of Mus musculus with 4 samples.

Results

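Wnt4 and 9 further genes of the Wnt and planar cell polarity system were examined in sorted mouse beta cells. The 10 genes (the ligand gene Wnt4, the receptor genes Fzd3 and Fzd6, the co-receptor genes Lrp5, Lrp6 and Ror1, the core polarity genes Vangl1 and Vangl2, the polarity effector gene Cfap126 and the nuclear factor gene Tcf7l2) were taken by symbol from the 31017 gene names of the count tables. They had been picked with the contrast of CD63 high against CD63 low cells already known, so their differences in that contrast are given as a description, without a test. Beta cells, the insulin-secreting cells of the islets of Langerhans, came from wild-type C57BL/6J male mice 10 weeks of age. Islets were digested, picked by hand, kept in culture overnight and dissociated with trypsin, and the cells were sorted on CD63, a tetraspanin of late endosomes and secretory vesicles. There were 2 libraries of CD63 high and 2 of CD63 low cells. Labels do not say whether the libraries of a group came from separate animals, so the spread between them may be technical.

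Wnt proteins are secreted, lipid-modified ligands that bind Frizzled receptors together with a co-receptor. With LRP5 or LRP6 they stabilise beta-catenin, which then acts with TCF factors such as TCF7L2 on target genes. With ROR1, ROR2 or RYK and the membrane proteins VANGL1 and VANGL2, other Wnt signals act through the planar cell polarity branch, which orients cells within a tissue. In mouse islets, Wnt4 is known as a ligand of adult beta cells, and a reporter of Cfap126, also called Flattop, has been used to mark a mature beta cell subset.

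The promoters of Wnt4 and Cfap126 are shown because both transcripts were lower in both CD63 high libraries than in either CD63 low library, while the promoters differ greatly in base composition. RefSeq windows (GRCm38.p6, 250 bases before to 50 after an annotated start) were at hand for 5 of the 10 genes, in 8 windows. The Wnt4 window is chr4:137277385-137277684 on the plus strand, and the Cfap126 window, the first of its 3, is chr1:171113736-171114035 on the plus strand. Capitals mark CpG dinucleotides, and both run 5′ to 3′.
Wnt4: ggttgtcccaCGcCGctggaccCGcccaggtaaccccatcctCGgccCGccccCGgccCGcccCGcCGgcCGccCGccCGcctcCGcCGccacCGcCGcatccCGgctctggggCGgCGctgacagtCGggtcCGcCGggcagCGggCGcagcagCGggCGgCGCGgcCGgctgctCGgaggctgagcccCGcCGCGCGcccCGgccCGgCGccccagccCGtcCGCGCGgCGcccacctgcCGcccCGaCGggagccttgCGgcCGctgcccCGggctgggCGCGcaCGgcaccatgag
Cfap126: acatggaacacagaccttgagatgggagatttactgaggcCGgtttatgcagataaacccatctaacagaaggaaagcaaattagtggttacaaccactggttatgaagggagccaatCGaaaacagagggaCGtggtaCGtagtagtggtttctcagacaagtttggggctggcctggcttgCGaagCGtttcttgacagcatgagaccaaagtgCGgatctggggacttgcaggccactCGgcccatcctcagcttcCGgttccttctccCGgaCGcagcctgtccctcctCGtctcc
The Wnt4 window held 51 CpG and was 84.3% G or C. Only 0.715% of the 32851 windows held as many CpG, and the median window held 7 CpG at 52.7% G or C. The Cfap126 window held 12 CpG at 52.7% G or C. The exons counted for Wnt4 begin at 137277489 and those for Cfap126 at 171113918. Both positions lie inside the windows, so part of each window is counted as exon. The TCF motif ATCAAAG, searched on both strands, stood in 3.73% of all windows and in 0 of the 8 windows of these genes, which says only that these letters were not in these windows.

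Total counts were 29249270 to 35003307 per library, and the libraries stood apart by group in transcripts of other cells. Cd63 itself was at 1974 and 2077 CPM (TMM-scaled count-per-million values) in the CD63 high and 1186 and 1120 CPM in the CD63 low libraries, the direction of the sort. Its log2 fold change was 0.81 (SE 0.19, edgeR adjusted p 0.0484). With library size as the only scaling Cd63 did not pass (edgeR adjusted p 0.113). Nor did it with a robust dispersion (0.0523) or with the replicate number as a block (0.218). It passed with RLE factors, without a filter on low counts, with DESeq2 and with limma-voom. Without 1 library at a time its log2 fold change ran from 0.78 to 0.85. Beta cell markers (8 genes, insulin included) summed to 534056 and 618542 CPM in CD63 high and 673890 and 481476 CPM in CD63 low libraries, so the labelled cell type had its defining transcripts in all 4. Insulin and Iapp made up most of that sum and overlapped between the groups, whereas the other 5 beta cell markers were lower in both CD63 high libraries, and 2 of them fell by edgeR's quasi-likelihood test. Of all genes tested, 22.2% had both CD63 high libraries below both CD63 low libraries, and 0.287% were called lower in CD63 high cells. Slc2a2, the glucose transporter GLUT2, had 50.0 and 71.9 CPM in the sorted high cells, while the low cells had 164 and 184 CPM (log2 fold change -1.51, SE 0.23, adjusted p 0.00623). Mafa, a transcription factor of mature beta cells, stood at 118 and 136 against 228 and 301 CPM (-1.06, SE 0.21, adjusted p 0.0253). With library size as the only scaling neither passed (adjusted p 0.0541 for Slc2a2 and 0.122 for Mafa), and Mafa did not without CD63 high replicate 1 (0.0760). Markers of other cells were higher in the CD63 high libraries. The 6 alpha cell markers summed to 5092 and 5740 CPM against 223 and 339 CPM, the 4 delta cell markers to 452 and 889 against 73.4 and 43.8 CPM, and the 3 gamma cell markers to 2334 and 4113 against 559 and 279 CPM. The sums were 566 and 864 against 16.5 and 203 CPM for 8 acinar markers, 2539 and 1375 against 704 and 683 CPM for 7 duct markers, and 122 and 481 against 21.7 and 33.9 CPM for 8 macrophage markers. Of these lists, 2 alpha, 3 delta, 3 gamma, 4 acinar, 1 duct and 7 macrophage genes rose by edgeR's quasi-likelihood test. Gcg alone gave 4987 and 5646 CPM of the alpha sums in CD63 high and 179 and 287 CPM in CD63 low libraries. Sst alone gave 401 and 819 CPM of the delta sums against 59.6 and 38.0 CPM. Endothelial, fibroblast, Schwann and lymphocyte markers summed to at most 7.19 CPM in any library, with Cdh5, Tie1, Pdgfra, Cd3e and Cd3d at 0 in all 4, none of them called, and the epsilon cell gene Ghrl was at 0 in the CD63 high and at most 0.0659 CPM in the CD63 low libraries. The part of these other cells, and of the lower beta cell markers, in the differences described here was not tested. In bulk samples, fewer cells that make a transcript and less transcript per cell cannot be told apart.

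Wnt4 was the most abundant of the 10 genes and stood lower in CD63 high cells. Wnt4 (chromosome 4, 137277489 to 137299726, mm10, plus strand, counted over its exons) had 1567 counts in each CD63 high library and 4410 and 4407 in the CD63 low libraries. This was 50.0 and 56.6 CPM against 145 and 113 CPM. Both CD63 high libraries lay below both CD63 low libraries, and the gap between the groups was wider than the distance within either group. The level in CD63 high cells was 2.42-fold lower (log2 fold change -1.28, SE 0.21). Of the 13241 genes tested, 215 (1.62%) had a more negative log2 fold change. Wnt4 was the only 1 of the 10 genes called at an adjusted p under 0.05, in a comparison that called 2.79% of all genes tested, 2.5% as higher and 0.287% as lower in CD63 high cells. That count is not a finding, since the contrast had helped to choose the gene. Without 1 library at a time the log2 fold change ran from -1.43 (without CD63 low replicate 2) to -1.09 (without CD63 low replicate 1).

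**Figure D1:**
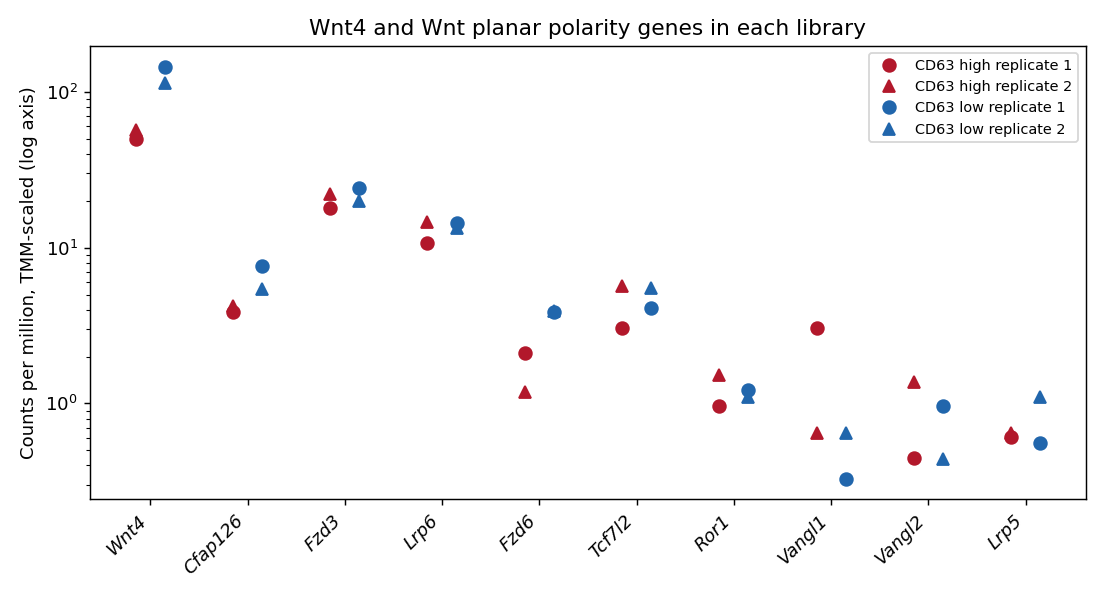
TMM-scaled CPM (log axis) of the 10 genes in each of the 4 libraries, red for CD63 high and blue for CD63 low, circles for replicate 1 and triangles for replicate 2, ordered by mean TPM. Wnt4 sits at 50.0 and 56.6 CPM in CD63 high and 145 and 113 CPM in CD63 low libraries, and Fzd3 and Lrp6 overlap between the groups.

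Wnt4 made up most of the Wnt ligand transcript pool. On a scale that corrects for gene length (TPM, from counts per base of merged exon), Wnt4 stood at 19.5 and 19.5 TPM in CD63 high and 49.0 and 50.4 TPM in CD63 low libraries. All 19 mouse Wnt genes together summed to 23.2 and 22.5 TPM against 51.9 and 53.6 TPM. Wnt4 thus gave 84.1% and 86.8% of ligand TPM in CD63 high against 94.5% and 93.9% in CD63 low libraries. Wnt5b, a ligand of the beta-catenin-independent branch, came next with 2.90 and 2.19 TPM against 2.46 and 3.12 TPM. Its groups overlapped (log2 fold change -0.06, SE 0.36, edgeR adjusted p 0.971). Wnt5a, the best known polarity ligand, was at 26 and 16 counts in CD63 high against 26 and 13 in CD63 low libraries, and 8 ligand genes had no count in any library. Of the 18 other ligand genes, 3 could be tested and none was called by edgeR, DESeq2 or limma-voom or had an unadjusted p under 0.05, against 2.79% of all genes called.

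The receptor genes behaved differently from each other. Fzd3 (chromosome 14, 65192449 to 65262463, minus strand), a Frizzled used in polarity signalling, had 565 and 613 counts in CD63 high against 731 and 771 in CD63 low libraries. Scaled to 18.0 and 22.1 CPM against 24.1 and 19.8 CPM, its groups overlapped, with a log2 fold change of -0.13 (SE 0.24). Per length the groups of Fzd3 did not overlap, at 2.31 and 2.50 TPM against 2.66 and 2.89 TPM. Fzd6 (chromosome 15, 39006034 to 39038188, plus strand), its close relative, had 66 and 33 counts in CD63 high against 118 and 152 in CD63 low libraries, or 2.11 and 1.19 CPM against 3.89 and 3.90 CPM. Both CD63 high libraries of Fzd6 lay below both CD63 low libraries. The log2 fold change was -1.23 (SE 0.48), and leaving out CD63 high replicate 1 gave -1.71 and leaving out replicate 2 gave -0.89. Counts of the CD63 high libraries differed 2.0-fold. Per length, Fzd3 gave 39.1% and 38.5% of all Frizzled TPM in CD63 high against 34.3% and 20.9% in CD63 low libraries, and Fzd6 gave 5.50% to 14.7%.

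Frizzled genes besides these members did not pass the test in the main fit. Of the 8 Frizzled genes besides Fzd3 and Fzd6, 4 could be tested, none was called, and 3 had a negative log2 fold change. The median over these 4 was -0.94, against -0.01 over all genes tested. Fzd8 stood at 1.38 and 0.86 TPM in CD63 high and 1.59 and 3.34 TPM in CD63 low cells, at a log2 fold change of -1.02 (SE 0.43, edgeR adjusted p 0.299). Fzd7 stood at 0.27 and 1.25 TPM against 1.41 and 3.13 TPM (-1.40, SE 0.63, edgeR adjusted p 0.336), and its log2 fold change was -3.04 without CD63 high replicate 2. Among edgeR fits of all 4 libraries, Fzd7 passed without a filter on low counts (adjusted p 0.0214) and with the replicate number as a block (0.0188). For Fzd1 the groups overlapped, at 0.39 and 1.15 TPM against 0.68 and 2.58 TPM.

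The co-receptor members showed no separation of the groups. Lrp6 (chromosome 6, 134446476 to 134566965, minus strand), which passes Wnt signals to beta-catenin, had 336 and 406 counts in CD63 high against 439 and 518 in CD63 low libraries. That was 10.7 and 14.7 CPM against 14.5 and 13.3 CPM, with a log2 fold change of -0.13 (SE 0.27). CD63 high replicate 2 was the highest library of Lrp6 and CD63 high replicate 1 the lowest. Lrp5 (chromosome 19, 3584828 to 3686564, minus strand), its paralog, had only 19 and 18 counts against 17 and 43 counts. Only CD63 low replicate 2 stood out, and the log2 fold change of -0.41 (SE 0.79) was 0.18 without that library. A count of 17 carries an exact Poisson 95% interval of 9.90 to 27.2, for counting error only. Ror1 (chromosome 4, 100095791 to 100444765, plus strand), a receptor kinase that binds Wnt5a, had 30 and 42 counts against 37 and 43 counts, and a log2 fold change of 0.09 (SE 0.66) that was -0.28 without CD63 high replicate 2.

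Per length, Ror2, Ryk and Gpc4 stood above Lrp6, the most abundant co-receptor member, and the other 4 co-receptor genes averaged below it. Ror2, the paralog of Ror1, stood at 3.38 and 2.75 TPM in CD63 high against 4.12 and 7.82 TPM in CD63 low libraries. The groups of Ror2 did not overlap, as in 46.0% of all genes tested, and the gene did not pass (log2 fold change -0.84, SE 0.28, edgeR adjusted p 0.170), though it did without CD63 low replicate 1 (adjusted p 0.0480). Ryk, a Wnt receptor with an inactive kinase domain, was at 3.03 and 1.93 TPM against 3.38 and 4.41 TPM (-0.58, SE 0.30, edgeR adjusted p 0.410). Gpc4, a glypican that binds Wnt proteins at the cell surface, led the list at 58.8 and 47.7 TPM against 54.7 and 80.2 TPM, and its groups overlapped per length. On the CPM scale they did not, at 95.2 and 87.4 against 102 and 114 CPM (log2 fold change -0.24, SE 0.19, edgeR adjusted p 0.627). Of 7 co-receptor genes besides the members, 4 were tested, none was called, and their median log2 fold change was -0.41, against -0.01 over all genes.

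**Figure D2:**
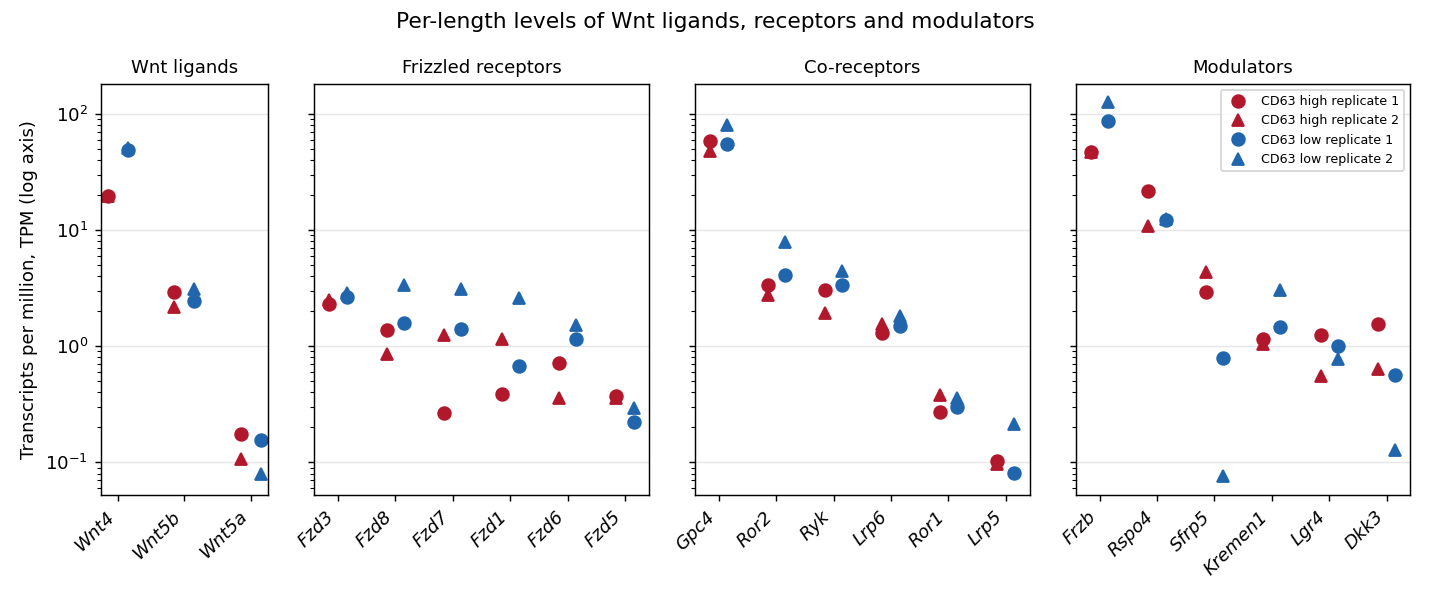
TPM (log axis) in each library for Wnt ligands, Frizzled receptors, co-receptors and modulators with counts in all 4 libraries, red for CD63 high and blue for CD63 low, circles for replicate 1 and triangles for replicate 2. Wnt4, Frzb and Gpc4 lead their groups, whereas Fzd3, the leading Frizzled member, stays between 2.31 and 2.89 TPM.

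Both Vangl genes were close to the limit of counting. Vangl1 (chromosome 3, 102153583 to 102204693, minus strand), a core polarity membrane protein, had 96 and 18 counts in CD63 high against 10 and 25 in CD63 low libraries. CD63 high replicate 1 alone was high, at 3.06 CPM, while CD63 high replicate 2, at 0.650 CPM, hardly differed from CD63 low replicate 2, at 0.642 CPM. The log2 fold change of 1.92 (SE 0.85) dropped to 0.41 without CD63 high replicate 1. Exons of Vangl1 overlap those of Gm16160, and the counts carry no strand, so reads of the overlap cannot be told apart. Vangl2 (chromosome 1, 172000960 to 172028444, minus strand), the paralog in which the mouse loop-tail mutation lies, had 14 and 38 counts against 29 and 17 counts. The highest and the lowest count of Vangl2 were both in CD63 high libraries, and the log2 fold change of 0.39 (SE 0.85) was -0.63 without CD63 high replicate 2 and -0.06 without CD63 low replicate 2.

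In the core polarity list the Dishevelled adaptors and Prickle1 carried most of the transcript. Of 15 genes besides Vangl1 and Vangl2, 10 were tested, none was called, and the median log2 fold change was -0.38, against -0.01 over all genes. Dvl1, which relays Frizzled signals into the cell, stood at 7.73 and 2.88 TPM in CD63 high and 4.86 and 9.10 TPM in CD63 low libraries. Dvl3 stood at 5.02 and 2.82 TPM against 4.57 and 6.88 TPM. Prickle1, a cytoplasmic partner of the Vangl proteins, stood at 3.89 and 1.28 TPM against 2.73 and 6.57 TPM. In each of these 3 genes CD63 high replicate 2 was the lowest library and CD63 low replicate 2 the highest, and the groups overlapped per length. On the CPM scale those of Dvl3 did not, at 19.6 and 12.5 against 20.7 and 23.6 CPM (log2 fold change -0.46, SE 0.27, edgeR adjusted p 0.478). Prickle1 passed the test without CD63 high replicate 1 (edgeR adjusted p 0.0102, log2 fold change -1.63), against -0.74 with all libraries. Fat4, Dchs1 and Dchs2, the large cadherins of a parallel polarity system, had no count in any library.

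Cfap126 was the second most abundant member per length and was lower in CD63 high cells. Cfap126 (chromosome 1, 171113918 to 171126967, plus strand) had 121 and 116 counts in CD63 high against 231 and 212 in CD63 low libraries, or 3.86 and 4.19 CPM against 7.61 and 5.44 CPM. Its groups did not overlap. The log2 fold change was -0.70 (SE 0.35), and -0.44 without CD63 low replicate 1. Its per-length level of 3.57 and 3.42 TPM against 6.07 and 5.73 TPM lay above that of each Frizzled member in all 4 libraries. Among 15 other polarity effector genes 14 were tested and none was called, and the median was -0.07 (log2). The small GTPase genes led that list. Cdc42 stood at 115 to 144 TPM, Rac1 at 36.9 to 48.5 TPM and Rhoa at 30.7 to 36.5 TPM over the 4 libraries, with log2 fold changes of 0.11, 0.08 and -0.04 (edgeR adjusted p 0.873, 0.915 and 0.955).

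Tcf7l2 differed more between libraries of a group than between the groups. Tcf7l2 (chromosome 19, 55741810 to 55933654, plus strand), the TCF factor that partners beta-catenin on DNA, had 95 and 157 counts in CD63 high against 124 and 216 in CD63 low libraries. Scaled values were 3.03 and 5.67 CPM against 4.09 and 5.55 CPM. Libraries of 1 group lay further apart than the group means, and the groups overlapped, with a log2 fold change of -0.15 (SE 0.41) that was -0.67 when CD63 high replicate 2 was left out and 0.23 when replicate 1 was. Of the other 18 TCF and nuclear partner genes, 16 were tested and none was called (median -0.20). Aes, a short Groucho-type protein, led that list at 151 to 205 TPM. Ctbp1, a corepressor, was at 33.8 to 60.7 TPM, and Pygo2, which helps beta-catenin to activate genes, at 9.53 to 12.8 TPM.

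Of the 10 members, 7 had log2 fold changes below 0 and 3 above, with a median of -0.14 against -0.01 over all genes tested, where 51.4% were below 0. On the CPM scale, groups did not overlap in 4 members. CD63 high lay below CD63 low for Wnt4, Fzd6 and Cfap126 and above it for Vangl1. Per length the groups of Vangl1 overlapped, at 0.702 and 0.132 TPM against 0.0652 and 0.167 TPM, and those of Fzd3 did not. Of all genes tested, 46.0% did not overlap on the CPM scale, and 22.2% had CD63 high below CD63 low. Per length, the order in CD63 low cells was Wnt4 at 49.7 ± 0.93 TPM, Cfap126 at 5.90 ± 0.24, Fzd3 at 2.77 ± 0.16, Lrp6 at 1.66 ± 0.23, Fzd6 at 1.33 ± 0.26, Tcf7l2 at 0.92 ± 0.37 and Ror1 at 0.33 ± 0.041 TPM (mean ± SD, n = 2), followed by Vangl2, Lrp5 and Vangl1 between 0.12 and 0.16 TPM. Neighbours from Lrp6 to Tcf7l2 and from Vangl2 to Vangl1 overlapped between libraries. In CD63 high cells Wnt4 led at 19.5 ± 0.0074 TPM (mean ± SD, n = 2). Both libraries held 1567 Wnt4 counts. The exact Poisson 95% interval of that count is 1490 to 1647, so this SD understates the error. Cfap126 at 3.49 ± 0.11, Fzd3 at 2.41 ± 0.14 and Lrp6 at 1.42 ± 0.19 TPM followed (mean ± SD, n = 2). Neighbours from Tcf7l2 down to Vangl2 overlapped.

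**Figure D3:**
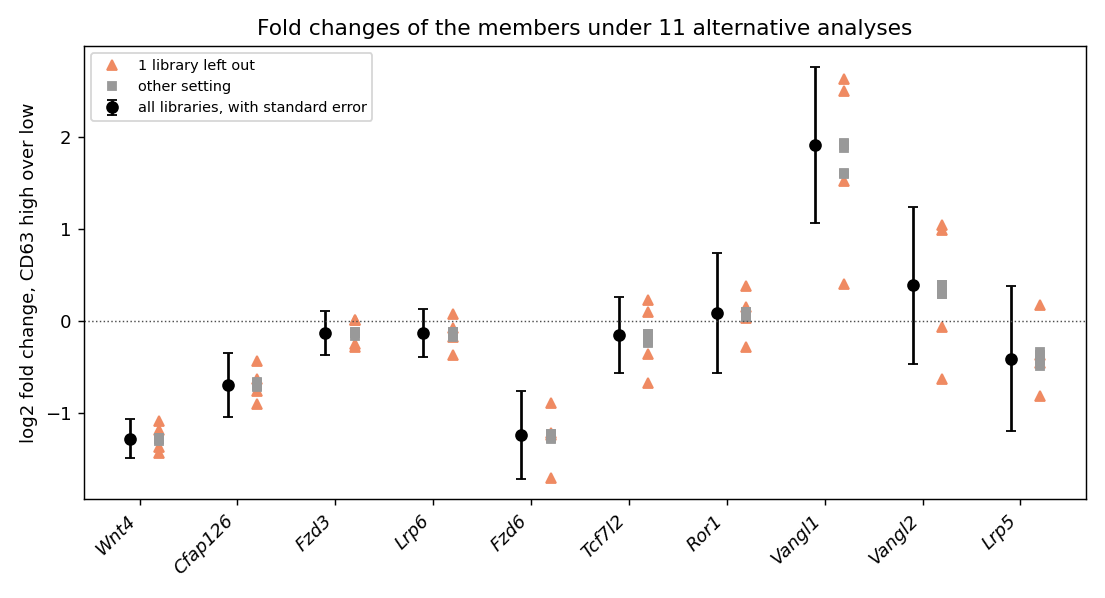
Log2 fold change (CD63 high over CD63 low) of each member with all libraries (black points, bars for the standard error), without 1 library (orange triangles) and under other settings (grey squares). Wnt4, Cfap126 and Fzd6 stay below 0 and Vangl1 above 0 in all 11 alternatives, and Vangl1 ranges from 0.41 to 2.63. On the CPM scale the groups of these genes did not overlap, so leaving out 1 library could hardly change their sign.

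Among secreted and membrane modulators, Frzb was lower in CD63 high cells. Frzb (chromosome 2, 80411970 to 80447625, minus strand) encodes a secreted Frizzled-related protein that binds Wnt ligands outside the cell. It had 2919 and 2918 counts in CD63 high against 5979 and 8478 in CD63 low libraries, or 93.2 and 105 CPM against 197 and 218 CPM. No library of one group came near the other group. Frzb fell 2.09-fold (log2 fold change -1.06, SE 0.19, edgeR adjusted p 0.0160), and the call ended without CD63 high replicate 1 (adjusted p 0.0727) and with library size as the only scaling (0.0873). Per length it stood at 47.2 and 47.1 TPM against 86.2 and 126 TPM, which was 2.41 and 2.41 times the level of Wnt4 in CD63 high and 1.76 and 2.49 times in CD63 low libraries. It was 1 of 161 pathway genes besides the members. Of these, 106 were tested, 1 fell, none rose and 105 did not pass, whereas 2.79% of all genes tested were called. At an unadjusted p under 0.05 stood 13 of the 106 in edgeR, against 14.9% of all genes tested: 4 each among modulators and the destruction complex, 2 target genes, and 1 each in Wnt secretion, the Frizzled receptors, the co-receptors and the calcium branch, with Axin2 counted under both the destruction complex and the targets. DESeq2 called Frzb, Sfrp5, Wif1, Axin1 and Btrc, and limma-voom called Frzb and Wif1. The median of the 106 was -0.16, against -0.01 over all genes. Without CD63 high replicate 1 the test called 4 of the pathway genes, and without CD63 low replicate 1 it called 6. Without CD63 high replicate 2 it called 2.

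Other secreted inhibitors had higher values in CD63 high cells without passing the test in the main fit. Sfrp5, a relative of Frzb, had 107 and 158 counts in CD63 high against 32 and 3 in CD63 low libraries, a log2 fold change of 3.05 (SE 0.85, edgeR adjusted p 0.0940), and it passed without CD63 high replicate 1 or without CD63 low replicate 1. Wif1, a secreted Wnt inhibitor named here after its values were seen, had 20 and 18 counts in CD63 high and none in CD63 low libraries. Pooled over each group, Wif1 was at least 14.9-fold higher in CD63 high cells, taking 3 counts over both CD63 low libraries as the floor (edgeR adjusted p 0.0560). Rspo4, an R-spondin that strengthens Wnt signals, was at 21.6 and 10.7 TPM against 12.2 and 12.3 TPM, and its groups overlapped per length. Of the 25 modulator genes 10 were tested, and their median of 0.29 (log2) was the same with Wif1 at its lower bound. In the same CD63 high libraries the summed markers of other islet, exocrine and macrophage cells were higher, as given above.

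In the main edgeR fit, no gene of Wnt secretion, of the destruction complex, of the beta-catenin targets or of the calcium branch was called. Of the destruction complex, edgeR called Axin1 and Btrc without a filter on low counts, and Axin1 with the replicate number as a block. The crossed pairing described below called Axin1, Csnk1g2 and Btrc. For Wnt secretion (9 of 10 tested, median 0.02) Tmed2 and Tmed10, cargo receptors of early transport, and Sec22b stood at 84.2 to 113 TPM, 59.0 to 78.2 TPM and 81.1 to 101 TPM over the 4 libraries. In the destruction complex, which degrades beta-catenin (17 of 18 tested, median -0.31, 13 below 0), Ctnnb1, the gene of beta-catenin itself, stood at 45.4 and 28.3 TPM in CD63 high and 35.0 and 67.2 TPM in CD63 low libraries (edgeR adjusted p 0.556). Csnk1a1 and Csnk1d, kinase genes, were at 31.2 to 40.1 and 18.7 to 32.9 TPM. The smallest adjusted p of that list was 0.0952, for Axin1, the scaffold, and is named after its value was seen. Axin1 was at 7.74 and 3.88 TPM against 8.81 and 19.3 TPM (log2 fold change -1.16, SE 0.32), its CD63 low libraries lay far apart, and it passed the test without CD63 high replicate 1 or without CD63 low replicate 1. Of 18 beta-catenin target genes 7 were tested, with a median of -0.14. Ccnd1, cyclin D1, stood at 7.86 to 10.6 TPM, Cd44 at 4.03 to 5.17 TPM, and Myc at 2.48 and 3.68 TPM in CD63 high against 5.63 and 5.65 TPM in CD63 low libraries (-0.79, SE 0.35, edgeR adjusted p 0.324). In the calcium branch (16 of 18 tested, median -0.18), Ppp3r1 stood at 27.0 to 33.0 TPM, Camk2b at 15.3 to 34.6 TPM and Map3k7 at 3.86 to 7.73 TPM.

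**Figure D4:**
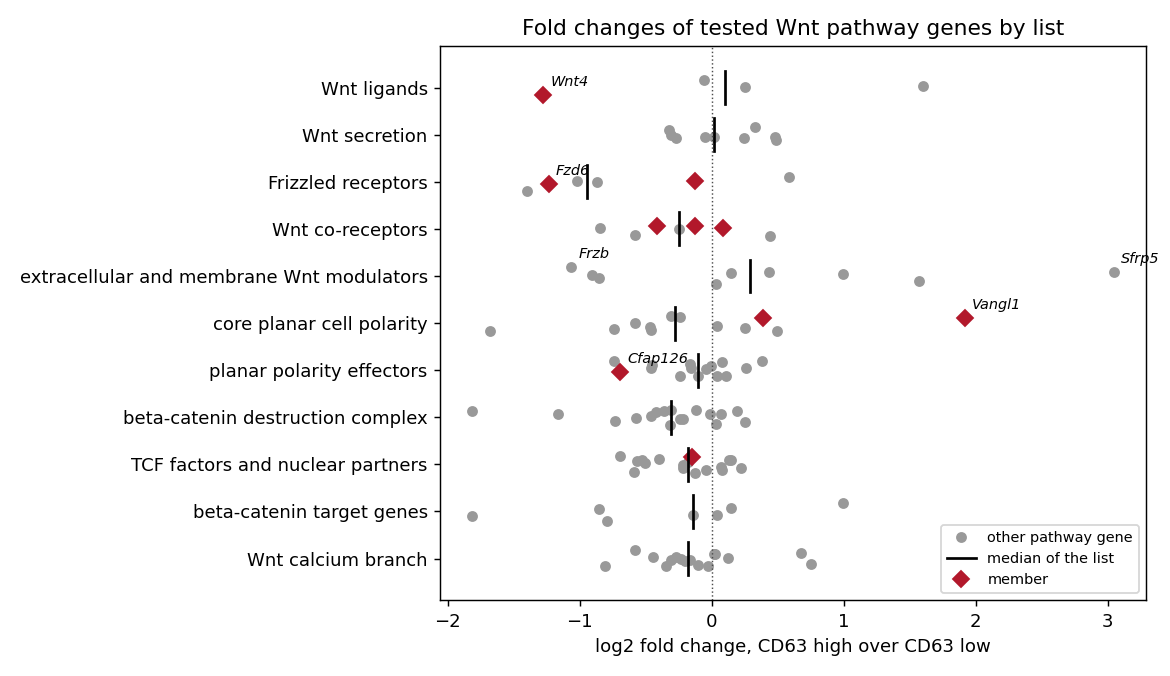
Log2 fold change (CD63 high over CD63 low) of each tested gene of the 11 pathway lists, red diamonds for the 10 members, grey circles for other genes and black bars for list medians. Wif1, without counts in CD63 low libraries, is left out, and Frzb at -1.06 is the only grey point that passed the test in the main fit.

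The genes whose pattern over the 4 libraries lay closest to that of Wnt4 were listed as a description. Likeness was the root mean square difference of log2 CPM after centring each gene on its own mean, over the 7668 genes that averaged 3 or more on the log2 CPM scale. Ripply3, a transcriptional corepressor gene, was closest, at a difference of 0.10, with 13.5 and 16.2 CPM in CD63 high and 39.8 and 26.8 CPM in CD63 low libraries. Mlxipl, the carbohydrate response element binding protein gene (0.13), Akr1c19 (0.14), Ky (0.16) and Fhod3 (0.17) followed. Frzb ranked 14th at a difference of 0.21. With 4 libraries in 2 groups, many genes that differ between the groups come close to one another by this measure.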

How the data were processed

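The authors deposited raw fragment counts per gene name for each of the 4 libraries, made with featureCounts 1.6.2 in paired-end mode, per the file headers, with the annotation of a Cell Ranger mm10 reference, no strand option and no option for reads with several alignments. STAR 2.6.0c is named per the submitters' processing notes. Libraries were made from polyA RNA with a low-input SMARTer and Nextera XT protocol, per the labels' protocols, which name no molecular identifiers, so intervals and floors cover counting error only.

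Genes were filtered with filterByExpr (minimum count 10, minimum total 15), scaled by TMM and tested with the quasi-likelihood test of edgeR 4.0.16 in R 4.3.3, with Benjamini-Hochberg adjustment over 13241 genes. All 10 members passed the filter. Standard errors were taken from the log2 fold change and F. TPM were computed from the deposited counts and merged exon lengths. The fit was tested on simulated data, where it missed most genes that had been changed 2-fold. A gene that was not called may therefore still differ. The smallest two-sided p of an exact permutation test with 2 libraries a group is 0.333, and 3 counts in a library are 0.0857 to 0.103 CPM. Chi-square tests of counts gave 37.3 and 73.7 per degree of freedom within CD63 high and CD63 low, so the libraries of a group differed beyond counting noise.

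The members and lists were chosen with earlier results of these data known. Named were all members, of each pathway list every called gene and, up to 3, those with the highest mean TPM, and the 5 genes most like Wnt4. DESeq2 1.42.0, limma-voom (limma 3.58.1), RLE factors, library size only, no filter, a robust dispersion, the replicate number as a block and leaving out each library were alternatives.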

Additional observations from a re-analysis of the deposited data

How the results depend on the processing

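All genes called numbered 369 with all libraries. The count was 67 with library size only, 940 without a filter on low counts, 686 with DESeq2, and 450 to 769 without 1 library, with 769 without CD63 low replicate 1. RLE factors, limma-voom and a robust dispersion kept it within 1.5 times. Wnt pathway genes called, 1 with all libraries (Frzb), numbered 0 with library size only, 6 without a filter, 5 with DESeq2, 2 with limma-voom, and 1 to 6 without 1 library. Without CD63 high replicate 1 Frzb was not among them. The cause was not tested. With the replicate number as a block the counts were 616 and 5, but nothing in the labels pairs the numbers, the file headers number the CD63 low libraries 2 and 3 where the titles used here say 1 and 2, and deviations of same-numbered libraries correlated at -0.10. The crossed pairing, added after seeing the data and holding the pair that shares number 2 in the file headers, called 942 and 5 genes. No scaling moved the median of all genes by over 0.1 (log2). Of 110 member values under 11 alternatives, 102 moved by less than the spread between replicates. With 2 libraries a group, leaving 1 out moves a value by an amount set by that same spread, so this count says little about stability. The direction was kept in all 11 by 4 members (Wnt4, Fzd6, Vangl1 and Cfap126). Their groups did not overlap on the CPM scale, so leaving out 1 library could hardly reverse them.

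Among 36 other named genes, 15 had a log2 fold change that changed sign in some setting, none of them called there, with adjusted p of at least 0.856. Without 1 library the values ran from -0.17 to 0.051 for Wnt5b, -0.26 to 1.07 for Wnt5a, -0.018 to 0.060 for Tmed2, -0.20 to 0.084 for Sec22b, -1.98 to 0.11 for Fzd1, -0.040 to 0.79 for Rspo4 and -1.07 to 0.18 for Dvl1. The ranges were -0.088 to 0.29 for Cdc42, -0.062 to 0.20 for Rac1, -0.19 to 0.087 for Rhoa, -0.39 to 0.075 for Ctbp1, -0.29 to 0.048 for Ccnd1, -0.12 to 0.23 for Cd44, -0.15 to 0.13 for Ppp3r1 and -0.46 to 0.079 for Map3k7. With library size only, Tmed2 was at -0.022. Depth limits Lrp5, Ror1, Vangl1 and Vangl2, whose counts lay between 10 and 96.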

Other observations

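Several Wnt ligand genes with few reads had them in CD63 high libraries only. Wnt1 (3 and 0 counts in replicates 1 and 2), Wnt2 (0 and 11), Wnt6 (0 and 3), Wnt10a (6 and 4), Wnt10b (4 and 0) and Wnt11 (0 and 6) were at 0 in both CD63 low libraries. Among all 19 ligand genes 6 had counts in CD63 high libraries only and none in CD63 low libraries only. Over all 31017 genes of the tables, 1762 had counts in CD63 high libraries only and 865 in CD63 low libraries only. CD63 high libraries had counts in 16094 and 16415 genes, and CD63 low libraries in 15314 and 15599 genes. In 5 of the 6 genes the reads came from 1 library. Wnt2b went the other way, with 1 and 1 counts against 6 and 5. All of these counts are too low for the test. Fzd9 had 21 counts in CD63 high replicate 1 and none in the other 3 libraries, and Sfrp1 had 13 in CD63 high replicate 2 alone.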
